A study of Mus musculus with 9 samples.

Results

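Left ventricular tissue of mice with a myocardial infarction treated with BPD was compared with the left ventricle of sham mice. The libraries were taken by their labels: MI+BPD replicates 1, 2 and 3 against Sham replicates 1, 2 and 3, which is 6 of the 9 libraries of the series. The other 3 libraries are untreated infarcts (MI) and share their controls with this comparison, so they enter the fit and are given beside it. The labels give the treatment of each group and place the series at day 14 after MI, with no separate time for sham. They give no strain, sex, age or genotype and do not spell out BPD. Of its dosing they say only that it was timed to the proliferative phase of healing, and the question put is whether fibroblasts are then less activated. RNA came from ventricle that included core and border of the infarct, which a sham heart does not have, so the groups also differ in what was cut out. Nothing says that the 3 libraries of a group came from separate animals, so p-values measure the spread between these libraries, which may be technical.

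After an infarct in the mouse, dead muscle is cleared by immune cells and replaced by a collagen scar. Resident fibroblasts divide, take on a contractile and matrix-secreting state, and later settle into a quieter scar state that expresses genes otherwise known from tendon and cartilage. The surviving muscle around the scar carries more load, and such muscle is known to lower the genes of fatty acid use and calcium cycling and to raise genes of the fetal heart, such as those of the natriuretic peptides. In bulk tissue, fewer cells of a type and less RNA per cell cannot be told apart, and this holds for every group of genes below.

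Total read counts ran from 14451410 to 17703461 in the sham libraries and from 17006222 to 17424302 in the MI+BPD libraries. Transcripts of the mitochondrial genome took 34.4% to 35.2% of all counts in sham, and 25.7%, 17.6% and 17.7% in MI+BPD 1, 2 and 3. The MI+BPD libraries were not alike. MI+BPD 1 lay nearest to the sham mean in 76.0% of the genes that were called, MI+BPD 2 in 14.7% and MI+BPD 3 in 9.26%. A chi-square statistic of the counts divided by its degrees of freedom was 75.3 and 68.0 between MI+BPD 1 and MI+BPD 2 and 3, 7.03 between MI+BPD 2 and 3, and 3.66 to 5.11 among the sham libraries. Among the untreated infarcts the statistic was 86.0 between MI 1 and MI 3, 66.3 between MI 2 and MI 3 and 21.9 between MI 1 and MI 2. Uneven libraries were thus not particular to MI+BPD. The labels give no batch that could be set against these differences. Heart muscle genes were abundant in every library, with a summed level of the 30 sarcomere genes, in CPM (reads scaled to library size), of 100293 to 104874 CPM in sham and 46311 to 60378 CPM in MI+BPD. Lists of tissue that could have been taken along were mixed. Of the atrial list, Sln and Bmp10 had at most 1 read in any library of these groups, but its summed level, most of it Nppa and Pam, which stressed ventricle is also known to make, was 723 to 902 CPM in sham and 2200 to 8840 CPM in MI+BPD. Of skeletal muscle genes, Myh4 had at most 1 read, Myh1, Myh2 and Pvalb reached 31, 17 and 14 reads in MI+BPD 3, and Tnnt3 had 0.457, 0.437 and 0.61 CPM in sham and 0.958, 1.85 and 3.25 CPM in MI+BPD (log2 fold change 1.99).

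Most of the transcriptome differed between the BPD-treated infarct and sham. Of 15138 genes tested, 9018 (59.6%) passed an adjusted p of 0.05, with 4816 (31.8%) higher in MI+BPD and 4202 (27.8%) lower. The test was the quasi-likelihood test of edgeR on raw counts with Benjamini-Hochberg adjustment, and values below are CPM, a gene's reads relative to the size of its library, scaled by trimmed mean of M values (TMM) factors, with 3 libraries per group. Without MI+BPD 1, 9155 genes passed. In 10374 genes (68.5%) every MI+BPD library lay above or every MI+BPD library lay below all sham libraries.

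Gains and losses had different shapes. Among called genes with a change under 2-fold, 2191 were higher and 3026 lower, and between 2-fold and 4-fold 1507 were higher and 1116 lower. A change of 4-fold to 8-fold was called in 662 higher and 60 lower genes. Beyond 8-fold, 244 genes were higher by a log2 of 3 to 4, 90 by 4 to 5 and 122 by more than 5, and 0 genes were lower. Several of the deepest losses went beyond 8-fold without MI+BPD 1, as given with those genes below. In mean CPM the 8 largest gains were those of Col3a1, Nppa, Col1a2, Sparc, Postn, Bgn, Col1a1 and Fn1, and the 8 largest losses were of 6 mitochondrial transcripts, Myh6 and Atp2a2. Of 6120 genes that were not called, 4497 had a 95% interval lying wholly within a 2-fold change in either direction. Scaled by library totals only, the median log2 fold change of all genes moved from 0.04 to 0.57 and the calls became 9131 higher and 1383 lower, so each direction below is relative to that shift.

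**Figure D1:**
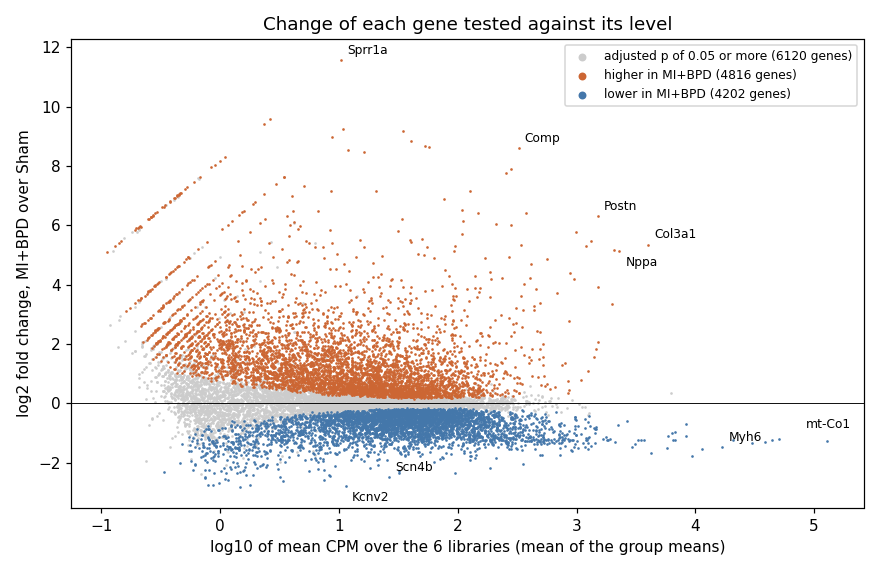
Each point is a gene tested: the horizontal axis is log10 of its mean CPM over Sham and MI+BPD, the vertical axis its log2 fold change of MI+BPD over Sham, and colour shows the call. Gains reach past a log2 of 8 while called losses end above -3, and at the far left the rows of points are genes with few or 0 sham reads, whose fitted fold depends on the prior count.

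Genes of the scar matrix rose by large folds. Of 33 fibrillar collagen and collagen assembly genes tested, 28 were higher and 0 lower, with a median log2 fold change of 3.13, against 0.04 over all genes tested. Col3a1, a collagen of early and elastic scar, had 202, 163 and 208 CPM in sham and 8063, 7149 and 8093 CPM in MI+BPD. All MI+BPD libraries lay far above all sham libraries, and the log2 fold change was 5.35 (standard error, SE, 0.26, adjusted p = 4.91e-06). Col1a1, a chain of the main collagen of mature scar, had 56.9, 49.8 and 67.5 CPM in sham and 3246, 2100.3 and 2342 CPM in MI+BPD, and Col1a2, its partner chain, 100.4, 107 and 132 CPM and 4332, 3769.7 and 4050.1 CPM. Their log2 fold changes were 5.46 (SE 0.33, adjusted p = 8.88e-06) and 5.16 (SE 0.29, adjusted p = 6.29e-06), and in neither gene did the groups overlap. Fibronectin, Fn1, on which fibroblasts lay down collagen, went from 59.2, 49.2 and 67.2 CPM to 2533, 2150.2 and 2316 CPM.

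The minor collagens that organise fibrils rose as well. Col5a1, which starts type I fibrils, had a log2 fold change of 4.02 (adjusted p = 3.62e-06), Col14a1, which sits on fibril surfaces, 4.94 (adjusted p = 3.62e-06), and Col6a1 and Col6a2, of beaded filaments, 3.13 and 3.20. Col11a1, best known from cartilage fibrils, had 0, 0.175 and 0.152 CPM in sham and 57.7, 83.9 and 65.4 CPM in MI+BPD. It was close to absent from sham and high in every MI+BPD library (log2 fold change 9.17, SE 0.67). Col8a2, a short-chain collagen, had 0.275, 0.437 and 0.152 CPM in sham and 44.4, 145 and 151 CPM in MI+BPD, with MI+BPD 1 the lowest of the 3 by a wide margin. The collagen-modifying enzyme Plod2, a lysyl hydroxylase that sets the type of crosslink, rose by a log2 of 1.67, while the prolyl hydroxylase subunit P4ha2 had 40, 44.4 and 40.9 CPM in sham and 51.7, 41.9 and 40.7 CPM in MI+BPD (log2 fold change 0.10, adjusted p = 0.403). The members that were not called included Col6a6, of type VI filaments: sham had 12.9, 11.5 and 10.8 CPM and MI+BPD 16.1, 4.36 and 4.72 CPM (log2 fold change -0.50, adjusted p = 0.591, and -1.40 without MI+BPD 1).

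Matricellular proteins, which sit in the matrix and signal to cells, and the enzymes that crosslink it were higher in 40 of 42 genes tested, with 0 lower and a median log2 fold change of 3.75. Postn, periostin, a marker of fibroblasts activated by injury, had 38.8, 33.2 and 41.9 CPM in sham and 1936, 3439 and 3603 CPM in MI+BPD. The groups did not overlap and the log2 fold change was 6.30 (SE 0.30, adjusted p = 4.6e-06). Sparc, a collagen-binding protein, and Bgn, the small proteoglycan biglycan, had log2 fold changes of 3.34 and 3.91. Vcan, the large proteoglycan of loose new matrix, had 23.1, 20.6 and 19.3 CPM in sham and 219.5, 241 and 228 CPM in MI+BPD (log2 fold change 3.45, SE 0.12, adjusted p = 3.27e-06). Lox, which crosslinks collagen and elastin, went from 7.32, 9.62 and 8.62 CPM to 345, 603 and 712 CPM, and its relative Loxl2 from 13.8, 12.2 and 15.3 CPM to 173, 167 and 168 CPM. The summed level of the list was 2488 to 2668 CPM in sham and 19615, 30507 and 32032 CPM in MI+BPD 1, 2 and 3. The members that were not called were Tgm2, a transglutaminase (223, 222 and 217 CPM against 238, 286 and 258 CPM, adjusted p = 0.0697), and Ltbp1, which stores latent TGF-beta (72.6, 70.6 and 76.3 CPM against 71.8, 84.9 and 80.7 CPM, adjusted p = 0.366).

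Genes known from tendon and cartilage had the highest median of all lists, 4.91, with 16 of 19 tested genes higher and 1 lower. Comp, cartilage oligomeric matrix protein, had 1.28, 0.612 and 2.97 CPM in sham and 204, 896 and 848 CPM in MI+BPD. MI+BPD 1 stood well below the other MI+BPD libraries but still far above sham (log2 fold change 8.60, SE 0.77, adjusted p = 5.1e-05, and 9.42 without Sham 3, its highest sham library). Fmod, fibromodulin, which governs fibril thickness in tendon, had 2.93, 3.76 and 3.74 CPM in sham and 110.3, 433 and 342 CPM in MI+BPD, and Thbs4, a thrombospondin of tendon and loaded muscle, 3.29, 3.85 and 2.21 CPM and 79.5, 352 and 223 CPM. MI+BPD 1 was the lowest treated library in each of these genes. Itgbl1, a secreted integrin-like protein, rose by a log2 of 4.91 (SE 0.36). The summed level of the list was 445 to 571 CPM in sham and 1436, 3762 and 3448 CPM in MI+BPD 1, 2 and 3. Wnt inhibitor Wif1 was the member called lower, and is named here after its values were seen. The list had 0 lower calls without Sham 3, MI+BPD 2 or MI+BPD 3, with other filters on low counts, with library totals only and with the replicate number as a block.

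**Figure D2:**
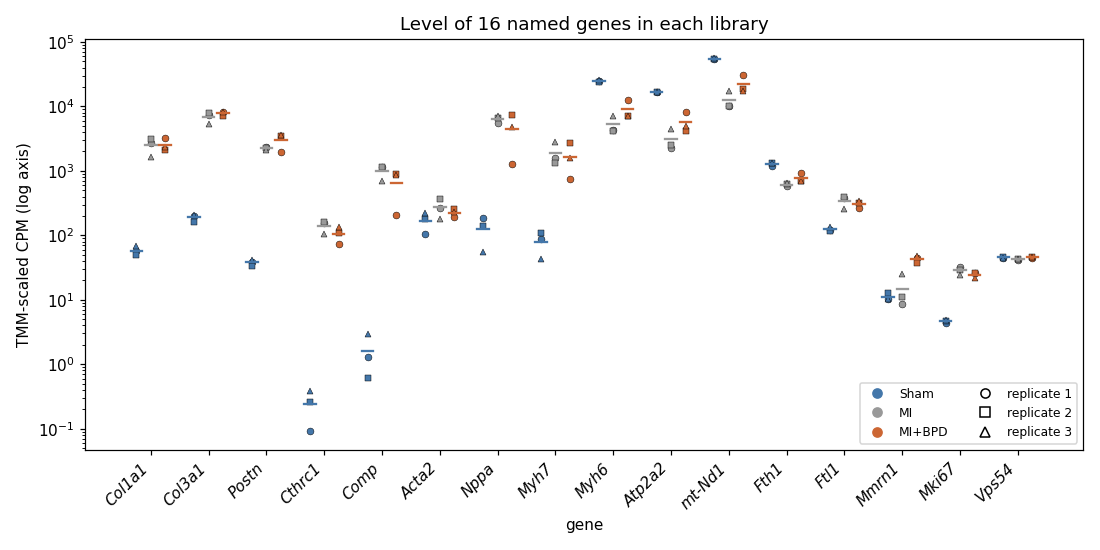
TMM-scaled CPM on a log axis for 16 genes in each of the 9 libraries; colour gives the group, the marker shape the replicate number and the short line the group mean. Collagens, Postn, Cthrc1 and Comp sit far above sham in both infarct groups, Myh6, Atp2a2 and mt-Nd1 below it, Acta2 overlaps, and Vps54 stays within a narrow range in all 9 libraries.

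Activated fibroblast genes were mostly higher, with 23 of 25 higher, 1 lower and a median of 1.93. Cthrc1, which marks the most matrix-productive fibroblasts of a scar, had 0.0915, 0.262 and 0.381 CPM in sham and 74.6, 109 and 136 CPM in MI+BPD (log2 fold change 8.68, SE 0.42, adjusted p = 4.88e-06). Sfrp2, a Wnt modulator secreted by fibroblasts, had 1.46, 1.92 and 3.58 CPM in sham and 292, 612 and 771 CPM in MI+BPD. In both genes the lowest treated library was MI+BPD 1, and the groups were far apart. Fap, a fibroblast surface protease, went from 8.33, 6.12 and 6.71 CPM to 27.3, 24.3 and 29 CPM (log2 fold change 1.93, adjusted p = 2.85e-05), Fstl1 from 88.7, 92.4 and 114 CPM to 1404, 1992 and 1964 CPM, and the stretch-gated channel Piezo2 from 0.915, 0.875 and 0.686 CPM to 26.5, 36.4 and 31.8 CPM.

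Acta2, the smooth muscle actin that defines the contractile myofibroblast and is also abundant in vessel walls, was the member that did not pass. It had 106, 178 and 224 CPM in sham and 191, 258 and 228 CPM in MI+BPD, the groups overlapped, and the log2 fold change was 0.41 (SE 0.30, adjusted p = 0.261). Its 95% interval ran from -0.27 to 1.09, which does not exclude a 2-fold gain, and with library totals only it was called higher (0.95, adjusted p = 0.0263). Palld, an actin-binding protein, was lower by a log2 of 0.35 (adjusted p = 0.0145), a call that was lost without Sham 3 (adjusted p = 0.0545), without MI+BPD 3 (0.06) or with no filter on low counts (0.0588), and whose value was 0.18 with library totals only. Markers of the resting fibroblast were mostly higher too: 15 of 23 were higher and 2 lower, with a median of 1.37. The summed level of the list went the other way. It was 10634 to 11025 CPM in sham and 9601, 9833 and 10081 CPM in MI+BPD 1, 2 and 3. Pdgfra, the receptor that marks cardiac fibroblasts, went from 59.8, 52.7 and 59.2 CPM to 144, 184 and 168 CPM (log2 fold change 1.53) and Dpt, dermatopontin, from 89.8, 91.7 and 102 CPM to 519, 457 and 507 CPM (2.39). The exceptions were Hsd11b1, which regenerates active glucocorticoid, at -1.18 (adjusted p = 0.000305), and Lpl, lipoprotein lipase, which heart muscle also makes, at -1.52.

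Matrix-degrading enzymes and their inhibitors were higher in 22 of 27 genes and lower in 2, with a median of 2.42. Mmp15, a membrane metalloprotease, and Timp4 were the members that fell, the former not with no filter on low counts (adjusted p = 0.0594). Mmp2 and Mmp14, a gelatinase and the membrane enzyme that activates it, rose by a log2 of 3.63 (SE 0.21) and 3.32 (SE 0.23), and the collagen-degrading cathepsin Ctsk by 4.15 (SE 0.18, adjusted p = 3.62e-06). The metalloprotease inhibitors moved in opposite directions. Timp1, the inhibitor induced by injury, had 0.915, 0.437 and 1.3 CPM in sham and 83.4, 52.1 and 66.1 CPM in MI+BPD (log2 fold change 6.21, adjusted p = 7.85e-06). Timp4, the inhibitor that is typical of normal heart, had 78.3, 44.8 and 36.7 CPM in sham and 19, 6.72 and 5.89 CPM in MI+BPD (log2 fold change -2.35, adjusted p = 0.00693, -3.11 without MI+BPD 1, and not called with no filter on low counts, adjusted p = 0.0549). Neither gene overlapped between the groups. Mmp9, a gelatinase of neutrophils and macrophages, had 0.275, 0.262 and 0.991 CPM in sham and 6.41, 0.308 and 0.66 CPM in MI+BPD, so that its log2 fold change of 2.18 (adjusted p = 0.212) rested on MI+BPD 1 and was -0.15 without it.

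Genes of TGF-beta and BMP signalling were higher in 20 of 28 and lower in 1, with a median of 1.36. The TGF-beta ligands among them are known as main inducers of scar matrix. Tgfb3 had 15.6, 19.6 and 18.2 CPM in sham and 171, 281 and 329.6 CPM in MI+BPD (log2 fold change 3.87, adjusted p = 1.51e-05), Tgfb2 8.87, 10.1 and 9.99 CPM and 39.8, 76.6 and 68.4 CPM (2.67), and Inhba, a subunit of activin, 2.01, 2.54 and 1.91 CPM and 29.2, 26.3 and 21.5 CPM (3.57). The type II receptor Tgfbr2 rose by 1.56 (SE 0.12). The member that fell was Bmp7, named here after its values were seen. The co-receptor Tgfbr3 had a log2 fold change of -0.09 (adjusted p = 0.671), and endoglin, Eng, the co-receptor of endothelium, -0.14 (adjusted p = 0.145), which became 0.39 (adjusted p = 0.0098) with library totals only. Of the basement membrane genes 17 of 21 were higher and 1 lower, with a median of 1.0. Col18a1, the source of endostatin, rose by 2.40 (SE 0.21) and Nid1, which ties laminin to collagen IV, by 1.54 (SE 0.15). The laminin chain Lama5 was the member that fell, by 0.63 on the log2 scale (adjusted p = 0.00107, and 0.358 with library totals only).

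Contractile genes of heart muscle moved the opposite way, by smaller folds from a high level. Of 30 sarcomere genes, 24 were lower and 2 higher, with a median of -0.91. Myh6, the fast myosin heavy chain of the adult mouse ventricle, had 24723, 23992 and 25257 CPM in sham and 12783, 7012 and 7079 CPM in MI+BPD. All MI+BPD libraries were below sham and MI+BPD 1 was the nearest to it (log2 fold change -1.46, SE 0.33, adjusted p = 0.00463). Lmod2, which lengthens thin filaments, went from 583, 547 and 641 CPM to 337, 314 and 297 CPM, Ldb3, a Z-disc protein, from 926, 961 and 954 CPM to 570.0, 468 and 432 CPM, and the chaperone Cryab from 1114, 1189 and 1091 CPM to 662, 603 and 519 CPM. The members that rose were Ankrd1 and Xirp2, both known as load-responsive proteins of the sarcomere. Xirp2 had 825, 832 and 748 CPM in sham and 896, 2558 and 1635 CPM in MI+BPD, and its call (log2 fold change 1.08, adjusted p = 0.0211) was lost when any sham library or MI+BPD 2 was left out (adjusted p from 0.0585 to 0.092). With library totals only, 16 sarcomere genes were called lower and the median was -0.39.

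Genes of the fetal and stressed heart were higher in 13 of 20 and lower in 2, with a median of 1.35. Nppa, atrial natriuretic peptide, a hormone the ventricle makes before birth and again under load, had 187, 138 and 54.4 CPM in sham and 1282, 7228 and 4830.2 CPM in MI+BPD. The gain differed widely between treated libraries, with MI+BPD 1 far below the others and yet above every sham library (log2 fold change 5.14, SE 0.69, adjusted p = 0.000416). Nppb, the related B-type peptide, had 98.4, 173 and 113 CPM in sham and 206, 457 and 351 CPM in MI+BPD (log2 fold change 1.40, adjusted p = 0.00469). Myh7, the slow myosin of the fetal mouse ventricle, had 88.6, 107 and 42.8 CPM in sham and 737, 2669.7 and 1601 CPM in MI+BPD (log2 fold change 4.40, SE 0.56, adjusted p = 0.000313). Acta1, skeletal actin, had 202, 75.8 and 125 CPM and 271, 725 and 410.0 CPM, and Ankrd1 736, 496 and 538 CPM and 1094, 3613 and 2683 CPM, with log2 fold changes of 1.80 (adjusted p = 0.00571) and 2.06 (adjusted p = 0.00198). In these 5 genes the libraries came in 1 order, MI+BPD 2 highest, then MI+BPD 3, then MI+BPD 1, and the groups did not overlap. Actn1 and Vim, cytoskeletal genes also strong in fibroblasts, rose by 2.32 and 2.44. Xirp1 and the metallothionein Mt1 fell, by 0.77 (adjusted p = 0.00172) and 0.56 (adjusted p = 0.00237) on the log2 scale, the latter not with library totals only (adjusted p = 0.79).

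The promoters of Nppb, Acta1 and Ankrd1, 3 of these 5 genes, are shown because they carry elements through which heart muscle stress genes are known to be driven. In the same windows Nppa held neither element, and Myh7 held an M-CAT in 1 of its 2 listed promoters. They are the 250 bases before the start site from the RefSeq table of GRCm38.p6, read 5′ to 3′ on the gene's strand, with capitals marking M-CAT elements, the binding motif of TEAD factors (CATTCC, which reads GGAATG where it lies on the other strand), and in Acta1 also a CArG box, the motif of serum response factor.
Acta1 (chr8:123894776-123895025, minus strand): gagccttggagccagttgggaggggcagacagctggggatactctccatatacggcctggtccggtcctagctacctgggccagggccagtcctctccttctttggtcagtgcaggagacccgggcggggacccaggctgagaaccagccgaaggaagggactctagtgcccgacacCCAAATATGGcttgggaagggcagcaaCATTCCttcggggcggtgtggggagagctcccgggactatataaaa
Nppb (chr4:147985650-147985899, plus strand): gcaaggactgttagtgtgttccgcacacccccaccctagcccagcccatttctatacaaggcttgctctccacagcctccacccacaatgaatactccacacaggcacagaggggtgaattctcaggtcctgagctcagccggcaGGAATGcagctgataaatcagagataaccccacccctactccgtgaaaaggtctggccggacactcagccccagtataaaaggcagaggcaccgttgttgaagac
Ankrd1 (chr19:36119845-36120094, minus strand): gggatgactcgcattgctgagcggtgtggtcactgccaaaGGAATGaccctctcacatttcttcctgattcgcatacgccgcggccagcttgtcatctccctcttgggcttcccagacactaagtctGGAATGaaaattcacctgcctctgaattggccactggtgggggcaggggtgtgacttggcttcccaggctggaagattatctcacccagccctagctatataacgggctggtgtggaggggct
The Acta1 CArG box starts 73 bases and its M-CAT 46 bases before the start site, the Nppb M-CAT 105 bases before it, and Ankrd1 holds 2 M-CAT elements, 210 and 123 bases before it. Over windows of 300 bases (250 before and 50 after the start), 7 of the 19 genes of the stress list with a promoter in the table held an M-CAT and 3 a CArG box. Of all 32851 promoters of that length, 14.7% held an M-CAT and 1.63% a CArG box. These shares count promoters, while the list counts genes with a match in any listed promoter. Genes with more than 1 promoter had more windows to match, so the values are not on the same unit. Matches to letters say nothing on binding in these hearts.

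Genes of calcium cycling were lower in 14 of 23 and higher in 5, with a median of -0.78. Atp2a2, the pump that returns calcium to the sarcoplasmic reticulum, had 16706, 16512 and 17010.4 CPM in sham and 8281, 4084 and 4905 CPM in MI+BPD (log2 fold change -1.54, SE 0.36, adjusted p = 0.00501). The subunits of the L-type calcium channel, Cacna1c and Cacna2d1, fell by 0.81 (SE 0.14) and 0.87 (SE 0.15). With library totals only, 9 were called lower. Among the 5 members that were higher were the surface calcium pump Atp2b4 at 0.80, the store sensor Stim1 at 0.60 and sorcin, Sri, at 0.59.

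Ion channels and pumps of heart muscle were mostly lower, with 30 of 34 lower, 2 higher and a median of -1.12. Kcnj2, the main inward rectifier that holds the resting potential, had 69.6, 64 and 73.5 CPM in sham and 38.5, 25.1 and 26.9 CPM in MI+BPD. Fxyd1, a regulator of the sodium pump, had 185, 210.5 and 214 CPM and 118, 109.8 and 100.5 CPM. The groups were separate in both genes (log2 fold changes -1.20 and -0.89, adjusted p = 0.00113 and 0.000784). One of the members that rose was Gja5, the connexin of conduction fibres and arteries (0.77). Among heart transcription factors, 13 of 19 were lower and 2 higher, with a median of -0.56, and 6 were lower and 4 higher with library totals only. Hand2, Tbx5, Mef2d and Gata4 fell by 1.0, 0.96, 0.62 and 0.54, the last 2 losing their call with library totals only (adjusted p = 0.244 and 0.925). Tbx20 had 173, 173 and 169 CPM in sham and 173, 314 and 322 CPM in MI+BPD. MI+BPD 1 stood at the sham level and the others well above it, and the call (adjusted p = 0.0204) was lost when any sham library, MI+BPD 2 or MI+BPD 3 was left out (adjusted p from 0.0569 to 0.0847).

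Genes of energy metabolism fell together. All 44 nuclear genes of oxidative phosphorylation that were tested were lower, with a median log2 fold change of -1.24 and a range of -1.50 to -0.89. All 29 genes of the tricarboxylic acid cycle and pyruvate entry were lower (median -1.23), as were 32 of 34 genes of fatty acid oxidation (median -1.44, 1 higher) and 20 of 22 of branched-chain amino acid and ketone use (median -1.15, 1 higher). With library totals only, the calls in these 4 lists were 44, 27, 32 and 19 lower. The summed level of the oxidative phosphorylation genes was 33181 to 36047 CPM in sham and 18936, 12336 and 12581 CPM in MI+BPD 1, 2 and 3, so that MI+BPD 1 stood between sham and the other treated libraries.

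Uqcrb and Uqcrh, subunits of complex III, had log2 fold changes of -1.24 (SE 0.22, adjusted p = 0.00155) and -1.13 (SE 0.21), and Cox5b, of complex IV, -1.28 (SE 0.23). Ogdhl, an oxoglutarate dehydrogenase, went from 207, 225 and 222 CPM to 99.6, 43 and 51.4 CPM, a deeper loss than its list's median (-1.75, SE 0.32). Pdk4, a kinase that inhibits pyruvate dehydrogenase when fat is burned, had 744, 415 and 536 CPM in sham and 100, 103 and 211 CPM in MI+BPD (log2 fold change -2.03, adjusted p = 0.00156). Here MI+BPD 1 was the lowest treated library. In fat use, the uncoupling protein of muscle Ucp3 went from 68.3, 47.4 and 45.1 CPM to 12.7, 5.7 and 14.5 CPM and the fatty acid transporter Slc27a1 from 88, 94.6 and 101 CPM to 56.1, 33.4 and 39.6 CPM. Cpt1a, the liver-type gate enzyme of fat oxidation, was not called (70.3, 71.4 and 66.4 CPM against 69.4, 67 and 75.7 CPM, log2 fold change 0.03, adjusted p = 0.842), and Ucp2, the uncoupling protein of immune and other cells, rose by 0.76.

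Transcripts of the mitochondrial genome that encode proteins were lower in 11 of 13 (7 without MI+BPD 2), with a median of -1.26. mt-Co1, of complex IV, had 182427, 185097 and 179552 CPM in sham and 104715, 61393 and 62323 CPM in MI+BPD. It fell by 1.26 on the log2 scale (SE 0.40, adjusted p = 0.0213), but the adjusted p rose to between 0.0538 and 0.0846 when any sham library, MI+BPD 2 or MI+BPD 3 was left out, and was 0.057 with a replicate block. mt-Cytb and mt-Nd5, of complexes III and I, fell by 1.21 and 1.23, with calls lost without MI+BPD 2 (adjusted p = 0.053 and 0.0568) or MI+BPD 3 (0.0558 and 0.0587). mt-Nd1, mt-Nd2 and mt-Nd4, of complex I, fell by 1.31, 1.35 and 1.24 (adjusted p = 0.00921, 0.00836 and 0.00824). mt-Co3 stood apart: sham had 116, 201 and 653 CPM and MI+BPD 1358, 51.9 and 50.5 CPM, with a log2 fold change of 0.59 (adjusted p = 0.697) that turned to -2.69 (adjusted p = 0.023) without MI+BPD 1. Mitochondrial genes overlap, lie on both strands and have nuclear copies, and the strand setting of the counting is not given in the sources used here, so single mitochondrial values are uncertain.

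Genes of sugar use went both ways. Of 22 glycolysis and lactate genes, 16 were lower (9 with library totals only) and 4 higher, with a median of -0.67. Slc2a4, the insulin-responsive glucose transporter of muscle, went from 382, 382 and 392 CPM to 200.3, 111 and 128 CPM, and Hk2 and Pgam2, muscle enzymes of glycolysis, fell by 1.11 and 1.18. Slc16a3, the lactate exporter of glycolytic and immune cells, had 1.28, 1.14 and 1.6 CPM in sham and 11.6, 11.3 and 12.7 CPM in MI+BPD, the largest change in the list (log2 fold change 3.13, SE 0.17, adjusted p = 5.9e-06), and Pfkp, the platelet-type phosphofructokinase, rose by 0.65. A like split was seen in the creatine list (3 of 12 higher, 9 lower, median -0.70): Ckm, muscle creatine kinase, went from 1856, 1801 and 1885 CPM to 915, 501 and 507 CPM, and Ckb, the brain-type enzyme, from 27.1, 27.7 and 28.7 CPM to 39.7, 74 and 75.7 CPM. In amino acid use, Bckdhb of branched-chain breakdown fell by 1.37 and the cytosolic aminotransferase Bcat1 went from 1.28, 0.7 and 0.915 CPM to 7.67, 6.78 and 7.52 CPM.

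Iron genes had no common direction. Of 32 tested, 10 were higher and 7 lower with a median of -0.06, which became 20 higher, 4 lower and 0.45 with library totals only. Lower calls were 11 without MI+BPD 1 and by DESeq2, 12 with median-ratio factors and 13 by limma-voom. Within them, the ferritin chains moved apart. Fth1, the heavy chain that oxidises iron for storage, had 1211, 1330.0 and 1336 CPM in sham and 922, 686 and 691 CPM in MI+BPD (log2 fold change -0.75, SE 0.15, adjusted p = 0.00271, -0.24 with library totals only, adjusted p = 0.104). Ftl1, the light chain, had 122, 115 and 134 CPM in sham and 265, 314 and 336 CPM in MI+BPD (log2 fold change 1.30, SE 0.17, adjusted p = 0.000328). Both chains have near-identical processed copies elsewhere in the genome, so counts of either are uncertain. Tfrc, the transferrin receptor through which cells take up iron, had 272, 422 and 513 CPM in sham and 199, 170.2 and 123 CPM in MI+BPD (log2 fold change -1.30, adjusted p = 0.0106). No treated library reached the lowest sham library, sham itself spread from 272 to 513 CPM, and the call was lost with no filter on low counts (adjusted p = 0.0584).

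These genes are known to be set at the RNA level by iron regulatory proteins, which bind a hairpin called the iron-responsive element: in the 5′ UTR of the ferritins and the exporter ferroportin (Slc40a1) they block translation, and in the 3′ UTR of Tfrc they protect the message. The elements are shown because they are a shared feature of genes that differed in how their messages compared with sham. Each was found in GENCODE M21 transcripts as a C, 5 bases, the loop CAGTGN and 5 bases pairing with the first 5 (G with T allowed), with capitals marking the loop.
Fth1, 5′ UTR, loop from base 99 of the transcript: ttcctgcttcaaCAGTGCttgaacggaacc
Ftl1, 5′ UTR, loop from base 90: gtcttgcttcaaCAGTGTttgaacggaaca
Slc40a1, 5′ UTR, loop from base 102: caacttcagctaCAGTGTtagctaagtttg
Tfrc, 3′ UTR, first of 4 elements found, loop from base 3327: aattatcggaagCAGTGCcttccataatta
Read counts show message level and not translation, which was not measured. Slc40a1 itself had 27.2, 24.7 and 21 CPM in sham and 23.7, 17.9 and 24.9 CPM in MI+BPD (log2 fold change -0.13, 95% interval -0.57 to 0.31, adjusted p = 0.589).

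Elsewhere in iron handling, Steap2, a metal reductase, rose by 3.23 (SE 0.26, adjusted p = 3.41e-05) and Slc11a1, the iron transporter of the macrophage phagosome, by 1.62 (SE 0.20). Ncoa4, the receptor that delivers ferritin for breakdown, had a log2 fold change of -0.15 (adjusted p = 0.35), which became 0.37 (adjusted p = 0.0338) with library totals only. Hmox1, which frees iron from heme, had 4.3, 4.64 and 7.32 CPM in sham and 20.8, 12.8 and 15.8 CPM in MI+BPD (log2 fold change 1.59, adjusted p = 0.00494). The genes that make heme and iron-sulfur clusters were lower in 23 of 31 and higher in 3 (1 without Sham 1, Sham 2 or MI+BPD 3), with a median of -0.77, among them Alad, an early enzyme of heme synthesis, at -1.27, and Isca2, a cluster carrier, at -0.87.

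Genes of ferroptosis, death by iron-driven lipid oxidation, and of antioxidant defence were also divided, with 9 of 36 higher, 16 lower and a median of -0.01, or 18 higher, 6 lower and 0.51 with library totals only. Gpx4, the enzyme that removes lipid peroxides, had 364, 343 and 374 CPM in sham and 236, 226 and 218 CPM in MI+BPD (log2 fold change -0.67, adjusted p = 0.00249, -0.14 with library totals only, adjusted p = 0.252). Acsl4, which loads membranes with oxidisable lipid, had 25.3, 27 and 25.8 CPM and 42.4, 38.4 and 36.1 CPM (log2 fold change 0.58, adjusted p = 0.00234). Slc7a11, the cystine importer, was scarce, at 0, 0.0875 and 1.07 CPM in sham and 2.04, 0.975 and 0.813 CPM in MI+BPD (log2 fold change 1.60, adjusted p = 0.132, 4.63 without Sham 3, adjusted p = 0.0077). The secreted antioxidant enzymes Sod3 and Gpx3 rose by 2.16 and 1.53, and the cytosolic Sod1 fell by 0.72 (adjusted p = 0.0545 with library totals only).

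Among immune cell genes, the macrophage, dendritic cell, T and NK cell, complement and antigen presentation lists were mostly higher, and the B and plasma cell, neutrophil and mast cell lists were mostly not called. Macrophage and monocyte genes were higher in 22 of 32 and lower in 1, with a median of 1.66 and a summed level of 827 to 959 CPM in sham and 2425 to 2993 CPM in MI+BPD. Ccr2, the receptor of monocytes recruited from blood, had 5.49, 6.82 and 4.96 CPM in sham and 29.7, 33.6 and 37.3 CPM in MI+BPD (log2 fold change 2.55, adjusted p = 1.51e-05). Trem2, of lipid-handling macrophages, had 1.28, 1.31 and 2.21 CPM and 13.5, 15.5 and 17.7 CPM, and Spp1, osteopontin, 0.457, 2.27 and 1.45 CPM and 53.5, 32.3 and 47.8 CPM. All 3 were separate from sham, with log2 fold changes of 3.26 and 4.98 for the latter 2. Timd4, a marker of macrophages that live in the healthy heart, was the member called lower, and is named after its values were seen. The list's lower calls ran from 0 to 2 over the alternatives, with 0 without Sham 2, Sham 3, MI+BPD 2 or MI+BPD 3 and with other filters on low counts or library totals only. Cd163 and Lyve1, markers of the same cells, did not pass. Cd163 had 35.1, 28.3 and 34 CPM in sham and 25.6, 7.44 and 8.33 CPM in MI+BPD (log2 fold change -1.25, adjusted p = 0.1, -2.07 without MI+BPD 1, adjusted p = 0.0232), and Lyve1 15, 23 and 24.9 CPM and 41.3, 20 and 23 CPM (adjusted p = 0.437). Arg1, of reparative macrophages, had 0, 0.175 and 0.152 CPM in sham and 15.2, 0.0513 and 0.508 CPM in MI+BPD, so that its log2 fold change of 5.44 (adjusted p = 0.0512) rested on MI+BPD 1 and was 1.24 without it.

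T and NK cell genes were higher in 14 of 16 with a median of 2.20 at low levels. The count was 9 without Sham 1, 8 without Sham 3, 7 with only the groups compared in the fit and 1 with a stricter filter on low counts, which leaves fewer members tested, and without MI+BPD 1 it was 11 higher and 1 lower. Their summed level was 6.59 to 7.78 CPM in sham and 16.1 to 19.3 CPM in MI+BPD. Cd3g, of the T cell receptor complex, had 0.0915, 0.35 and 0.0762 CPM in sham and 0.839, 1.23 and 1.47 CPM in MI+BPD, and Il7r, the interleukin-7 receptor, 0, 0.262 and 0.457 CPM and 3.41, 3.54 and 3.61 CPM (log2 fold changes 2.76 and 3.77, adjusted p = 0.00159 and 0.000671, 3.73 for Cd3g without Sham 2 and 4.65 for Il7r without Sham 3). Dendritic cell genes were higher in 9 of 11 (median 1.62, and 3 higher with the stricter filter), led by Itgax at 3.11 and Cd209a at 3.55. Neutrophil genes were higher in 1 of 8, Csf3r at 1.89, and mast cell genes lower in 1 of 7, Gata2 at -0.65 (adjusted p = 0.451 with library totals only). Genes of B and plasma cells were called in 3 of 15. Of these Sdc1, which fibroblasts and epithelia also carry, rose by 3.20 and Cd22 by 3.01, and Igha is given with the variable genes below. Igkc and Jchain, of secreted antibody, had 1.19, 1.57 and 3.35 CPM and 0.275, 0.0875 and 0.457 CPM in sham against 60.8, 5.49 and 12.1 CPM and 30.4, 1.59 and 5.08 CPM in MI+BPD. All treated libraries lay above sham, with MI+BPD 1 far above the others, and neither gene passed (adjusted p = 0.158 and 0.151). Both passed by DESeq2 (adjusted p = 0.0409 and 0.00366), with only the groups compared in edgeR's fit (0.018 and 0.0155) and without MI 1 (0.0276 and 0.0253). In these 3 settings 5, 9 and 9 of the list were higher. Their log2 fold changes of 3.63 and 5.40 were 2.03 and 3.50 without MI+BPD 1.

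Interferon-induced genes were called higher in 14 of 33 and lower in 0, with a median of 0.44, beside 31.8% of all genes called higher. The calls were 28 higher with library totals only (median 1.0), 9 higher without Sham 1, and 8 higher and 1 lower without MI+BPD 2. The untreated infarct had 28 of 33 higher than the same sham libraries (percent called higher over all genes 37.0%) and a median of 1.11. MI+BPD against MI had a median of -0.59 over these genes. In that comparison no gene at all passed in the main edgeR fit, while DESeq2 called 51 of all genes and limma-voom 1063. Oasl2, an antiviral enzyme-like protein, had 15.8, 16.5 and 15.6 CPM in sham, 73.9, 52.7 and 43.5 CPM in MI and 31.1, 37.3 and 27.2 CPM in MI+BPD, and Bst2, which tethers budding virus, 16.1, 15.6 and 12.1 CPM, 44.5, 45.3 and 33.6 CPM and 21.3, 28.4 and 26.6 CPM. In both genes MI+BPD lay between the other groups with no overlap; over all genes tested, MI+BPD and MI did not overlap in 13.9%, with MI+BPD lower in 7.32% and higher in 6.63% (MI+BPD against MI log2 fold changes -0.83 and -0.69, adjusted p = 0.369 for each). Rsad2, also interferon-induced, had 42.7, 37.3 and 51.6 CPM in sham and 24.5, 39.6 and 17.3 CPM in MI+BPD (adjusted p = 0.0915, and a log2 fold change of -1.07 with adjusted p = 0.0201 without MI+BPD 2). Ifi27 rose by 1.05 and the RNA sensor Ddx58 by 0.68 against sham. Antigen presentation genes were higher in 14 of 17 (median 0.83), among them the class II chain H2-Ab1, from 37.1, 30.6 and 27.4 CPM to 50.5, 113 and 104 CPM. The proteasome subunit Psmb10 had a log2 fold change of -0.13 (adjusted p = 0.43), which became 0.40 (adjusted p = 0.0283) with library totals only.

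Complement genes were higher in 14 of 18 and lower in 1 (median 1.81), with Serping1, the inhibitor of C1, at 2.02, the receptor C3ar1 at 1.96, and Cd59a, which blocks the membrane attack complex, the member that fell, at -0.84. Chemokines were higher in 7 of 24 (29.2%) and lower in 0, which is near the 31.8% of all genes called higher. With library totals only 13 were higher, and without MI+BPD 1 6 were higher and 3 lower. Cx3cl1, fractalkine, had 7.5, 7.87 and 7.09 CPM in sham and 19.7, 53.3 and 56.7 CPM in MI+BPD, and Cxcl16 9.88, 10.7 and 8.84 CPM and 29.6, 47.6 and 48.7 CPM (log2 fold changes 2.53 and 2.10). Ccl12, a monocyte attractant, had 1.56, 3.24 and 1.3 CPM in sham, 2.53, 2.48 and 2.72 CPM in MI and 5.69, 4.16 and 5.94 CPM in MI+BPD. Every MI+BPD library lay above every other (against sham 1.38, adjusted p = 0.00442, and against MI 1.03, adjusted p = 0.369, which did not pass). Over all genes tested, MI+BPD lay above every sham library in 35.8% and above every MI library in 6.63%. Cxcl14 had 13.8, 23.8 and 14.3 CPM in sham and 11.8, 6.93 and 11.6 CPM in MI+BPD (adjusted p = 0.0597).

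Blood vessel endothelial genes had a median of -0.41 with 13 of 25 lower and 3 higher, a direction that turned with library totals only (0.11, 11 higher and 5 lower). Gpihbp1, which carries lipoprotein lipase to the capillary surface, went from 66.4, 59 and 57 CPM to 32.8, 30 and 26 CPM (log2 fold change -1.04, adjusted p = 0.00054), and Fabp4, a fatty acid carrier of capillaries, from 618, 507 and 434 CPM to 281, 248 and 239 CPM. Flt1, the decoy VEGF receptor, fell by 0.75, a call lost with library totals only (adjusted p = 0.07). Plvap, which forms diaphragms in leaky and venous endothelium, had 4.94, 4.46 and 5.57 CPM in sham and 25.1, 26.1 and 30.5 CPM in MI+BPD; the groups were far apart (log2 fold change 2.44, adjusted p = 0.00035). Mural cell genes were higher in 8 of 18 and lower in 3 (median 0.37), with Pdgfrb, which fibroblasts share, at 1.23, Mcam at 0.74 and the pericyte channel subunits Kcnj8 and Abcc9 at -0.61 and -1.04. The Kcnj8 call was lost without Sham 1 (adjusted p = 0.0525), without MI+BPD 3 (0.0526) and with library totals only (0.552), and that of Abcc9 with library totals only (0.051). Smtn, a smooth muscle protein, was at -0.50 (adjusted p = 0.00141) and at 0.02 with library totals only.

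Lymphatic endothelial genes were higher in 4 of 6 and lower in 1, with a median of 1.0. Mmrn1, a secreted protein of lymphatic vessels, had 10.3, 12.9 and 10.3 CPM in sham and 44.9, 36.9 and 47.4 CPM in MI+BPD, with all treated libraries at about the same level (log2 fold change 1.94, SE 0.35, adjusted p = 0.00158). Flt4, the receptor of the lymphatic growth factor VEGF-C, had 24.3, 19.8 and 18.9 CPM and 45.6, 39.1 and 42.4 CPM, and Reln, reelin, 9.88, 12.2 and 9.76 CPM and 21.6, 17.9 and 23.4 CPM (log2 fold changes 1.01 and 0.98, adjusted p = 0.000539 and 0.00528). In untreated MI these 3 genes had 8.55, 11.1 and 24.8 CPM, 25.9, 31.1 and 37 CPM and 7.64, 10.5 and 15 CPM, in each case below every MI+BPD library, as in 6.63% of all genes tested. MI+BPD against MI gave log2 fold changes of 1.55, 0.44 and 0.93, each with an adjusted p of 0.369, so none passed. Pdpn, podoplanin, which scar fibroblasts also make, rose by 2.77 against sham and did so in MI too (2.95). Prox1, the master factor of lymphatic fate, is also expressed by heart muscle and fell by 0.98 (adjusted p = 0.00713).

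In markers of the heart's outer lining MI+BPD 1 stood apart. Epicardial and mesothelial genes had a median of 1.49 but were called in 3 of 15 (5 with library totals only), and the median was 0.29 without MI+BPD 1. Wt1 had 5.21, 7.26 and 7.01 CPM in sham and 19.2, 4.11 and 4.16 CPM in MI+BPD, and Krt8 0, 0.525 and 0.229 CPM and 5.39, 0.359 and 0.762 CPM, in both genes with MI+BPD 1 high and the others near sham (adjusted p = 0.611 and 0.0621, and log2 fold changes of 0.48 and 3.04 that were -0.69 and 1.09 without MI+BPD 1). Aldh1a1 and Tbx18, also expressed in fibroblasts and mural cells, rose by 1.49 and 1.56. Schwann cell genes were higher in 4 of 10, led by the sodium channel Scn7a at 1.27 and the neurotrophin receptor Ngfr at 1.65, beside 31.8% of all genes. The count was 2 without Sham 2, Sham 3 or MI+BPD 3. Of 11 genes typical of the atria 7 were higher and 2 lower (median 0.76, 4 higher without Sham 2 or MI+BPD 3), and of 5 skeletal muscle genes 2 were higher and 1 lower. The 5 erythroid genes tested had a median of -0.18 (0.34 with library totals only), and in the main edgeR fit 0 passed and 0 had an unadjusted p under 0.05. Without Sham 2, Hbb-bs was called lower (log2 fold change -0.40, adjusted p = 0.046). Both adipocyte genes tested, Plin4 and Cidea, were lower, by 1.39 and 0.99, and Adipoq had at most 1 read in any library of the groups. What these markers contribute to the lists above was not tested.

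Cell division genes were higher in 33 of 40 and lower in 0, with a median of 1.55. Mki67 had 4.39, 4.72 and 4.8 CPM in sham and 25.9, 26 and 21.8 CPM in MI+BPD, and Top2a, the topoisomerase of dividing cells, 2.47, 2.54 and 2.21 CPM and 17.8, 17.6 and 16.8 CPM. Their log2 fold changes were 2.40 (SE 0.14) and 2.85 (SE 0.13, adjusted p = 3.62e-06), and the treated libraries were close to each other, MI+BPD 1 included. Kif11, a mitotic motor, and Racgap1, of cytokinesis, rose by 2.11 and 2.37, while Cdk2 was at 0.09 (adjusted p = 0.55). Cenpf, a kinetochore protein, had 22.5, 18.1 and 23.2 CPM in sham and 24.6, 12.5 and 11 CPM in MI+BPD (log2 fold change -0.41, adjusted p = 0.214, and -0.89 with adjusted p = 0.000838 without MI+BPD 1).

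Hypoxia target genes were split, with 10 of 27 higher and 12 lower. Over all genes tested 31.8% were higher and 27.8% lower, and each list of this paragraph is to be read beside these shares. Egln1 and Egln3, the oxygen sensors, fell by 1.13 and 1.16, Bnip3, of mitochondrial turnover, by 0.83, and Hif1a itself rose by 0.72 (adjusted p = 0.000422) while Epas1, which encodes HIF-2alpha, fell by 0.81. In the unfolded protein response, 11 of 26 were higher and 5 lower (3 without MI+BPD 2): Pdia3, which folds secreted proteins, rose by 1.05 and Herpud1 fell by 1.07. Hspa5, the main chaperone of the pathway, had 708, 707 and 662 CPM in sham and 512, 433 and 426 CPM in MI+BPD, a call (-0.60, adjusted p = 0.0313) that was lost when any sham library, MI+BPD 2 or MI+BPD 3 was left out (adjusted p from 0.0612 to 0.0986), with library totals only (0.711) and with a replicate block (0.0581). Immediate early genes, which are also known to respond to handling of tissue, were higher in 9 of 23 and lower in 1. The higher count is not far from the 31.8% of all genes called higher. Egr2 was at 3.0 and Junb at 1.27, and Dusp1, the member that fell, at -0.58. The Dusp1 call was lost without Sham 1 (adjusted p = 0.132), Sham 2 (0.0805) or MI+BPD 2 (0.0921) and with library totals only (0.8). Fosb varied within sham itself, at 6.77, 19.7 and 0.915 CPM against 3.65, 0.975 and 4.22 CPM in MI+BPD (adjusted p = 0.15, log2 fold change -1.62, and -0.36 without Sham 2); without Sham 3 it was called (log2 fold change -2.17, adjusted p = 0.0369). Clock genes were divided, 4 of 19 higher and 5 lower, with Npas2 at 1.19 and a median of -0.25 that became 0.28 with library totals only. Lower clock genes numbered 1 to 3 without any one of Sham 2, Sham 3 or the MI+BPD libraries.

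Some genes differed little. Cytosolic ribosomal proteins had a median of 0.01 with 5 of 37 higher and 2 lower, though 36 were higher with library totals only and 1 to 3 without any one of the Sham libraries, MI+BPD 2 or MI+BPD 3. Rpl3 stood out among them, from 125, 140.0 and 135 CPM to 244, 324 and 301 CPM (log2 fold change 1.12, adjusted p = 0.000137), and ribosomal protein genes have many processed copies, so their counts are uncertain. The 10 genes of at least 20 CPM with the smallest change were Vps54, Rbm6, Brox, Atrn, Ddx21, Phf2, Zfp638, Mcmbp, Med13 and Eloa, of vesicle sorting, splicing, transcription and replication. Vps54, of retrograde transport, had 45, 46.2 and 45.1 CPM in sham and 45.1, 45.7 and 45.5 CPM in MI+BPD, and Med13, of the Mediator complex, 106, 111 and 109 CPM and 110.5, 107 and 108 CPM (0.53 on the log2 scale with library totals only).

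**Figure D3:**
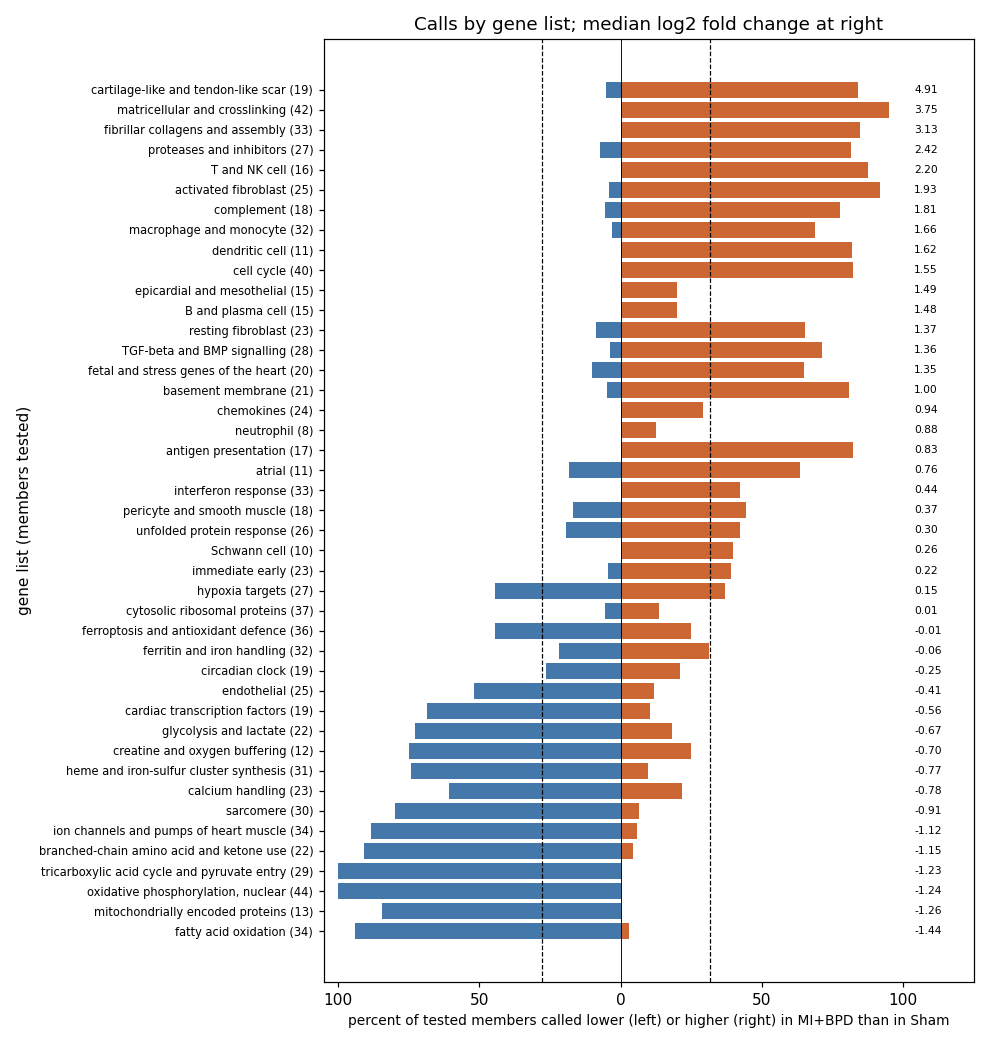
For each gene list with at least 8 tested members, bars give the percent of tested members called higher (right) or lower (left) in MI+BPD than in Sham, with the median log2 fold change printed at the right and dashed lines at the shares of all genes tested, 31.8% higher and 27.8% lower. The scar matrix, T and NK cell and cell cycle lists lie far to the right and the metabolic and muscle lists far to the left; endothelial, iron, ferroptosis and clock lists change the sign of their median with library totals only.

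The largest folds came from genes nearly silent in sham. Sprr1a, a small proline-rich protein known from stressed heart muscle and skin, had 0 reads in sham and 4.79, 31.6 and 26.1 CPM in MI+BPD, at least 256-fold higher against a floor of 3 reads over the group. MI+BPD 1 was the lowest again. Cldn11, a tight junction protein, also had 0 sham reads and 2.64, 5.95 and 7.16 CPM in MI+BPD, at least 63.7-fold higher. In all, 6 genes had 0 sham reads and at least 1 CPM in every MI+BPD library, and 0 genes had the reverse. The others named by rule were Tnmd, tenomodulin, a tendon marker, at least 57.4-fold higher, the connexin Gjb5, at least 24.8-fold, and the granin Scg2, at least 23.7-fold. Cemip, which breaks down hyaluronan, had 1 sham read and 15.4, 21.6 and 27.3 CPM in MI+BPD, a ratio of 772 (95% counting interval 138 to 30501.5). Cilp2, of cartilage, had 1 sham read and 7.01, 23.8 and 21.5 CPM, a ratio of 638 (114 to 25208.8). Without Sham 3, which held the sham read of Cemip and of Cilp2, these genes were at least 162-fold and at least 134-fold higher. Leaving out a sham library leaves fewer reads to set the floor against, and without Sham 3 the bounds were 161 for Sprr1a, 40.2 for Cldn11, 36.2 for Tnmd, 15.6 for Gjb5 and 14.9 for Scg2. Without MI+BPD 2, Tnmd was at least 30.6-fold higher, and without MI+BPD 1 Gjb5 was at least 16-fold higher. C1qtnf3, a secreted protein of cartilage and fat, was already detected in sham, at 0.0915, 0.175 and 0.229 CPM against 51.5, 91.9 and 100.4 CPM (log2 fold change 8.85, SE 0.56).

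Among the 12 largest losses were 4 ion channel subunits. Kcnv2, a potassium channel subunit, had 17.4, 25.6 and 16.9 CPM in sham and 6.11, 0.975 and 1.83 CPM in MI+BPD. The chloride channel Clcn1 had 11.4, 13.3 and 13.6 CPM and 4.25, 0.719 and 1.47 CPM, Scn4b, a sodium channel subunit, 51.8, 40.4 and 42.8 CPM and 15.6, 1.59 and 7.31 CPM, and Cngb3, a cation channel subunit, 13, 17.2 and 11 CPM and 5.15, 1.08 and 1.57 CPM. MI+BPD 1 was the treated library nearest to sham in all 4 genes, and none overlapped. The log2 fold changes were -2.77, -2.60, -2.48 and -2.42 (adjusted p = 0.00303, 0.00486, 0.0104 and 0.00566), and -3.86, -3.57, -3.37 and -3.40 without MI+BPD 1. The Scn4b call was lost with no filter on low counts (adjusted p = 0.0756). Without MI+BPD 1, Acsm5, of fatty acid activation, moved from -2.48 to -3.34, the carboxylesterase Ces1d from -2.36 to -2.97 and Timp4 from -2.35 to -3.11. Pfkfb1, which sets the pace of glycolysis, Scd4, a fatty acid desaturase, and Aqp4, a water channel, fell by 2.22, 2.44 and 2.26. The mitochondrial transfer RNA mt-Tp, which overlaps other transcripts, fell by 2.27. Scd4 and Ces1d have close paralogs, which makes their counts uncertain.

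Called genes with the widest spread among the treated libraries were mostly raised in MI+BPD 1. Igha, the heavy chain of immunoglobulin A, had 3 sham reads in all and 84.9, 3.13 and 8.99 CPM in MI+BPD, a ratio of 351 (95% counting interval 120 to 1702), but its call (adjusted p = 0.0395) was lost in 7 alternatives, among them each sham library left out, MI+BPD 3 left out and MI+BPD 1 left out (adjusted p = 0.22, ratio 71.9). Hp, haptoglobin, which binds free haemoglobin, had 0.0915, 0.262 and 0.762 CPM in sham and 39.4, 1.85 and 10.2 CPM in MI+BPD (log2 fold change 5.41, adjusted p = 0.0442, and 3.88 with adjusted p = 0.196 without MI+BPD 1, the call also being lost without any sham library, without MI+BPD 3 and with no filter on low counts). Cxcl5, a neutrophil attractant, had 0.0915, 0.262 and 0.0762 CPM and 20.7, 2.05 and 3.76 CPM, and Col24a1, a minor fibrillar collagen, 2 sham reads and 24.3, 2.77 and 3.2 CPM. They were far higher in MI+BPD 1. Cxcl5 was at 5.89, at 4.26 without MI+BPD 1 and at 6.61 without Sham 2, and the ratio of Col24a1 went from 166 (95% counting interval 45.7 to 1375) to 53.0 without MI+BPD 1. Col2a1, the collagen of cartilage, had 1 sham read and was low in MI+BPD 1: 0.659, 12.3 and 7.62 CPM, a ratio of 254 (45.3 to 10058.3), 157 without MI+BPD 2 and at least 58.6-fold without Sham 1.

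MI+BPD 1 lay nearer to sham in the muscle and metabolic lists, but not in every list. In log2 relative to the sham mean, the median oxidative phosphorylation gene was at -0.86, -1.48 and -1.45 in MI+BPD 1, 2 and 3, the median fatty acid oxidation gene at -0.93, -1.78 and -1.64, and the median sarcomere gene at -0.71, -0.95 and -1.11. Matricellular genes were at 3.25, 3.91 and 3.90, and interferon genes at 0.12, 0.69 and 0.30. Fibrillar collagens were at 2.97, 2.64 and 2.74 and cell cycle genes at 1.07, 1.20 and 0.99, where MI+BPD 1 was not the nearest to sham. The untreated infarcts spread along the same lists, with oxidative phosphorylation at -2.23, -2.04 and -1.36 in MI 1, 2 and 3.

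**Figure D4:**
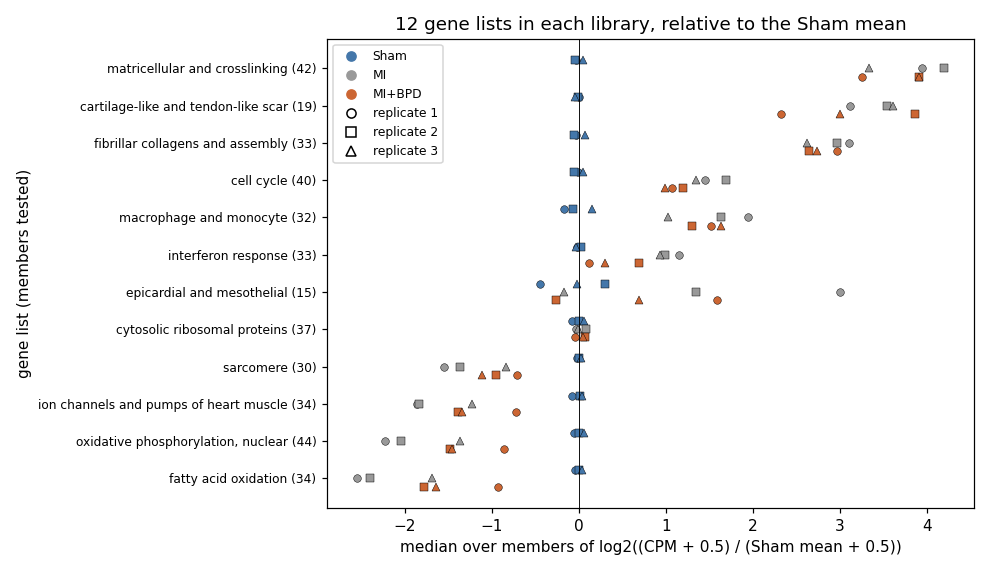
For 12 gene lists, the median over tested members of log2((CPM + 0.5) / (Sham mean + 0.5)) in each library; colour gives the group and the marker shape the replicate number. MI+BPD 1 lies nearest to sham of all infarct libraries in the oxidative phosphorylation, fatty acid oxidation and ion channel lists, and MI 3 lies near MI+BPD 2 and 3 there.

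Beside these values, the untreated infarct differed from the same sham libraries in 10429 genes (68.9%), 5158 (34.1%) of them by at least 2-fold, against 9018 and 3801 (25.1%) for MI+BPD. These comparisons share the sham libraries, and the test of the difference is MI+BPD against MI. MI 1 also held 626 reads of the fat cell gene Adipoq, against at most 4 in any other library. In MI+BPD against MI, 0 genes (0%) passed by edgeR, with 2043 genes at an unadjusted p under 0.05 and a smallest adjusted p of 0.369, whereas DESeq2 called 51 and limma-voom with quality weights 1063. The count rested on MI 3: without it edgeR called 1353, and without any other library it called 0. In the lists, the medians of MI+BPD and of MI against sham were 3.13 and 3.30 for fibrillar collagens, 1.93 and 2.13 for activated fibroblast genes, -0.91 and -1.21 for sarcomere genes, -1.24 and -1.83 for oxidative phosphorylation and -1.44 and -2.23 for fatty acid oxidation. For Col1a1, MI+BPD against MI gave a log2 fold change of 0.03 (95% interval -0.58 to 0.63), for Postn 0.40 (-0.13 to 0.93) and for Cthrc1 -0.41 (-0.92 to 0.10), so changes of more than 2-fold lay outside the interval for these 3 genes. For Myh6 the value was 0.77 (0.03 to 1.5, adjusted p = 0.369), with 4365, 4214 and 7197 CPM in MI 1, 2 and 3, so that MI 3 overlapped the treated libraries.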

How the data were processed

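RNA-seq of mouse left ventricle was analysed from the deposited table of raw read counts per gene symbol (3 Sham, 3 MI and 3 MI+BPD libraries). Per the labels' protocols, TRIzol RNA with a RIN above 7.0 was sequenced on DNBSEQ-T7 as 150 bp paired-end reads. The submitters' processing notes name STAR and the builds mm10, GRCm39 and mm39 with no role for each; for the counter, annotation and strand setting the entry is the same: not given in the sources used here. Counts were tested as deposited by the authors, with no rounding or other change.

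Genes were kept by edgeR's filterByExpr (count minimum 10, total minimum 15), leaving 15138 of 55367 symbols and 99.9% of counts; 26591 symbols had 0 counts everywhere. Libraries were scaled by TMM, and all 9 were fitted by group in edgeR 4.0.16 (R 4.3.3) with the robust quasi-likelihood F test, 6 residual degrees of freedom and a biological coefficient of variation of 0.167. Calls are Benjamini-Hochberg adjusted p under 0.05 over all genes tested. The standard error of a log2 fold change is its size divided by the root of F. One read was worth 0.0565 to 0.0692 CPM in the sham libraries. Folds of genes with 0 sham reads are bounds against 3 reads over the group, and those with 1 to 3 reads carry a 95% counting interval; both cover counting error only.

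Genes were described by 48 lists from textbook knowledge. Named genes were the 12 largest gains and 12 largest losses in fold, the 8 largest gains and losses in mean CPM, 5 genes silent in sham, the 6 called genes most variable over MI+BPD libraries, up to 4 members of smallest adjusted p and up to 2 exceptions per list, a panel of 20 genes, and the 10 flattest genes of at least 20 CPM; some genes the rule names are not reported here. The comparison, lists and panel were chosen with earlier results of these data known. Alternatives were DESeq2 1.42.0, limma 3.58.1 voom with quality weights, other scalings and filters, a replicate block and each library left out. The scripts were tested on simulated data.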

Additional observations from a re-analysis of the deposited data

How the results depend on the processing

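In leave-one-out fits the calls against sham ran from 7477 to 9188. With library totals only, 9131 genes were called higher and 1383 lower, so the split went from 53.4% to 86.8% higher. Of the 9018 main calls, 6199 were called again in that fit with the same sign. The others lost the call or were called with the other sign. A test against a 2-fold change (glmTreat) called 1330 genes, against 3801 called and at least 2-fold. For MI+BPD against MI, DESeq2 called 51 genes and limma-voom 1063, and leave-one-out fits called 0 to 1353, the latter without MI 3; the cause was not tested. Some named genes changed sign with library totals only and were called in that fit or the main fit. These were Med13 (0.53), Palld (0.18), Eng (0.39), Psmb10 (0.40), Smtn (0.019), Rpl27 (0.26) and Ncoa4 (0.37). The value of mt-Co3 ran from -2.69 without MI+BPD 1 to 1.62 without Sham 3. Over all named genes and alternatives, 95 values lost the call and 85 gained it. A further 8 changed sign with a call in the main fit or the alternative. The remaining 5512 kept their side of the threshold, and those called in neither fit could differ in sign. With the replicate number as a block, 8457 genes were called against sham; same-numbered Sham and MI+BPD libraries had correlations of deviations of -0.094, -0.060 and -0.063, and the labels do not say that a number marks a shared animal or batch, so this pairing rests on a number alone. With 3 libraries per group the median 95% interval of a log2 fold change was 0.707 wide over all genes tested, which limits what is detectable in a single gene at this depth.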
